A study of Mus musculus and Homo sapiens with 10 samples.

Results

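The genes described here are 10 regulators and markers of the naive pluripotent state of mouse embryonic stem (ES) cells, taken by symbol from a list: Pou5f1, Sox2, Nanog, Klf4, Klf5, Tfcp2l1, Esrrb, Zfp42, Nr0b1 and Dppa5a. They are 10 of the 30619 genes or unmatched RefSeq entries in the mouse RNA table, and the values were those of the entry with the highest mean of each gene. The study asked how L1 retrotransposons are regulated in ES cells, and its 4 mouse RNA libraries test a knockdown of Gm6871, a KRAB zinc finger protein. In the sh-Gm6871 group (n = 2), ES3 cells of strain C57BL/6 had been transduced with a lentiviral vector (LV) carrying a hairpin against Gm6871, and RNA was taken 4 days later. In the sh-empty group (n = 2), the same line had received the empty hairpin vector for the same time. Both groups are thus transduced cells of a single line, and no untransduced culture was analysed here. Whether libraries 1 and 2 of a group are separate cultures is not stated in the labels, and the spread that the p-values rest on may therefore be technical only. Cytoplasmic poly(A) RNA was sequenced. The library totals behind the RPKM values were worked out from those values and are not reported depths. They were 51415125 and 66050821 reads in sh-Gm6871 libraries 1 and 2, and 37198636 and 63023969 reads in sh-empty libraries 1 and 2. The level of Gm6871 itself was not checked, because 0 entries of the table matched its 2 reference transcripts. The table heads the libraries KO and WT with the replicate number, and these were read as sh-Gm6871 and sh-empty because the table is named for control against Gm6871 knockdown. The sign of each difference rests on that reading, which no value here checks. A pair of human libraries, used only at the end, came from H1 ES cells at passage 69 transduced with LV sh-DNMTs, a knockdown of DNA methyltransferases (n = 1), or with LV sh-empty (n = 1).

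Naive ES cells correspond to the epiblast of the preimplantation embryo and are held in that state by LIF signalling and by low activity of the FGF-ERK pathway. POU5F1 (OCT4) and SOX2 bind DNA together at composite sites and form the core of the network with NANOG. KLF4, KLF5, TFCP2L1 and ESRRB stabilise the naive state downstream of LIF and WNT signals and are lost or lowered when cells become primed for differentiation. Zfp42 (Rex1), Nr0b1 (Dax1) and Dppa5a are widely used as marks of ES cells. Fewer cells in the naive state and less RNA per cell cannot be told apart in these bulk libraries.

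The promoter sequences of the steadiest member, Nanog, and of the most variable of those tested, Tfcp2l1, are shown first, since composite POU5F1-SOX2 sites are the hallmark of this network. The RefSeq promoter table (GRCm38.p6) held 11 windows for 8 of the 10 members, each of 300 bases from 250 before to 50 after a transcription start. Klf5 and Dppa5a had none. The windows were searched on both strands for the core of a composite SOX-POU5F1 motif (TGTNATGCA), the octamer of POU factors (ATGCAAAT), a SOX motif (ACAATG), a KLF motif (GGGNGTGGC), an ESRRB motif (TCAAGGTCA) and a STAT motif (TTCNNNGAA), and matches are in capitals. The composite motif can overlap the SOX motif. The Nanog window lies at chr6:122707315-122707614 on the plus strand and the Tfcp2l1 window at chr1:118627695-118627994 on the plus strand.
Nanog: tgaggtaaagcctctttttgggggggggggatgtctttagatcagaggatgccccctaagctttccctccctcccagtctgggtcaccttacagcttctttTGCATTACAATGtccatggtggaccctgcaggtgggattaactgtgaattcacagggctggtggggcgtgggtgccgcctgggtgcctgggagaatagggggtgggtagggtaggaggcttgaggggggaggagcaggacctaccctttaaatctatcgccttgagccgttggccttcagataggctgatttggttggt
Tfcp2l1: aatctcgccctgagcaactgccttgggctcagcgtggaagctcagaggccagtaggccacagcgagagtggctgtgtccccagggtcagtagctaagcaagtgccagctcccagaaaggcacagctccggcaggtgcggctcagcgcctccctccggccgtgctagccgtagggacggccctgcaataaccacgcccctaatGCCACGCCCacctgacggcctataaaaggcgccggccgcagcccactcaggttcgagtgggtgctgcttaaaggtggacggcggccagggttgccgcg

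The core of the composite motif was found in Nanog, from 149 to 141 bases upstream of the start, and read TGCATTACA on the plus strand. A SOX motif overlapped it and ended 138 bases upstream. The composite motif occurred in 0.801% of the 32851 promoter windows of that length in the table. A second Nanog window, with a start further upstream, held the same site. Zfp42 had an octamer, ATTTGCAT, from 186 to 179 bases upstream, a motif that 1.74% of all windows held. Tfcp2l1 had a KLF motif, GCCACGCCC, from 48 to 40 bases upstream, present in 5.76% of all windows. Of the other windows, 1 of 2 for Pou5f1 held a SOX motif (12.6% of all windows), 1 of 2 for Esrrb held a SOX and a STAT motif (8.30% of all windows for STAT), and those of Sox2, Klf4 and Nr0b1 held none of the 6. The ESRRB motif was in no member's window and in 0.423% of all. A match describes letters in a window and is not evidence of binding.

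All the members other than Esrrb were strongly expressed in every library, and the 5 highest kept the same order of levels in each. Dppa5a, an RNA-binding KH-domain protein of early embryos, was the highest of the members, with a mean over the 4 libraries of 4185 RPKM (reads per kilobase of entry, scaled to the library's reads). Pou5f1 followed at 992 RPKM, Tfcp2l1 at 467, Sox2 at 266 and Nanog at 179 RPKM. The ranges of these 5 over the 4 libraries did not overlap between neighbours in the order, nor did that of Nanog overlap the next. Below Nanog the ranges of neighbours overlapped, with Klf5 at 99.4, Klf4 at 94.0, Nr0b1 at 87.5 and Zfp42 at 70.1 RPKM. Among the 11658 genes tested, Dppa5a ranked 2, 2, 2 and 5 in sh-Gm6871 libraries 1 and 2 and sh-empty libraries 1 and 2, in that order, and Pou5f1 ranked 50, 55, 50 and 43. The lowest rank of any of the 9 was 1395, for Zfp42 in sh-empty library 1. Pou5f1, Nanog and Dppa5a have close copies or pseudogenes, and the sources used here do not say how reads with several positions were placed, so their levels are uncertain to that extent.

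**Figure D1:**
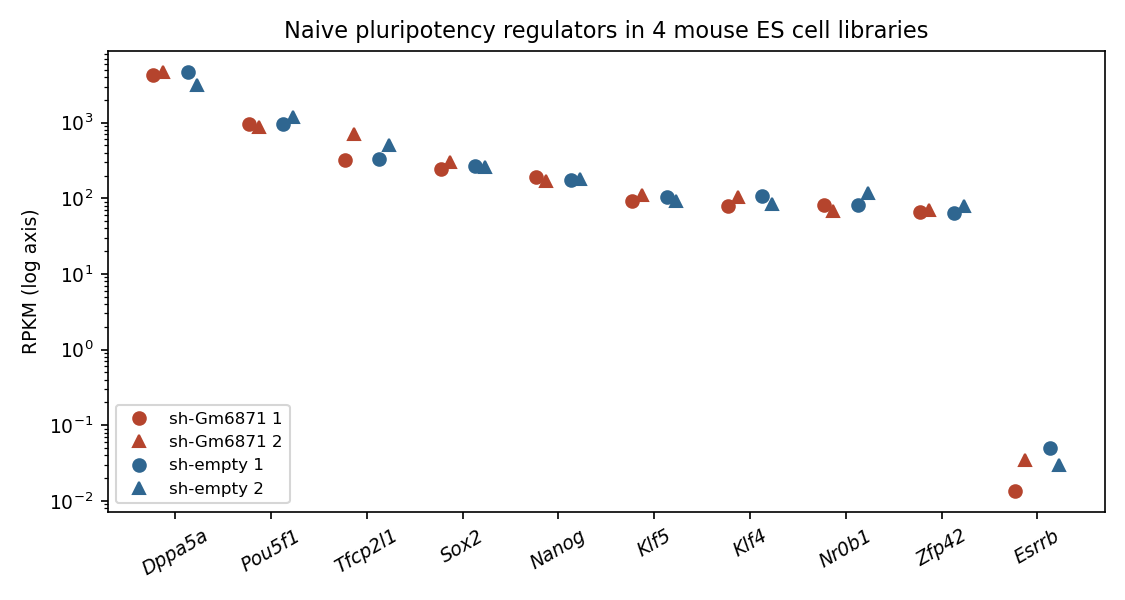
RPKM on a log axis of each of the 10 genes in sh-Gm6871 libraries 1 and 2 (red) and sh-empty libraries 1 and 2 (blue), ordered by the mean over the 4 libraries. Dppa5a lies between 3194 and 4719 RPKM, while the highest entry of Esrrb lies between 0.0135 and 0.0499 RPKM.

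None of the 9 expressed members passed the test for a difference between sh-Gm6871 and sh-empty cells. The comparison was made with limma on log2(RPKM + 0.5), in which a log2 difference is that of sh-Gm6871 minus sh-empty and understates the change of low genes, over the 11658 genes with a mean of at least 0.5 RPKM. Of these genes 0 had an adjusted p under 0.05 (0%), 223 had an unadjusted p under 0.05 (1.91%), and the same test by voom on whole reads also called 0, with 250 at an unadjusted p under 0.05. Among the 9 members 0 were called and 0 had an unadjusted p under 0.05, and each had a limma adjusted p of 0.997. Their log2 differences had a median of 0.03, with 5 above 0 and 4 below, against a median of -0.0026 over all tested genes, with 5784 above 0 and 5874 below. An exact two-sided permutation test of 1 gene, with 2 values in each group, could not reach the threshold, since its smallest possible p is 0.33.

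The differences of the core factors were smaller than the larger of the 2 spreads between libraries of a group. Pou5f1, the POU-domain factor required for the pluripotent epiblast, was at 960 and 888 RPKM in sh-Gm6871 cells, against 946 and 1175 RPKM in sh-empty cells. The groups overlapped, and sh-empty library 2 was the highest of the 4. Its log2 difference was -0.19 (SE 0.19, 95% interval -0.67 to 0.28). Sox2, its HMG-box partner, was at 240 and 300.2 RPKM in sh-Gm6871 cells, against 265 and 257 RPKM in sh-empty cells. Both sh-empty values lay between those of sh-Gm6871, and the log2 difference was 0.04 (SE 0.17, interval -0.39 to 0.47). Nanog, the homeobox factor whose level marks the stability of self-renewal, was at 194 and 168 RPKM in sh-Gm6871 cells, against 175 and 179 RPKM in sh-empty cells. It was the steadiest of the 9, with a highest value 1.16 times the lowest, and its difference was 0.03 (SE 0.15, interval -0.36 to 0.41). Within a library, Pou5f1 stood at 3.99 and 2.96 times Sox2 in sh-Gm6871 cells and at 3.57 and 4.58 times in sh-empty cells.

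The Krüppel-like factors had like profiles over the 4 libraries, and neither passed the test. Klf4, a LIF-responsive factor and one of the reprogramming factors, was at 79.9 and 105 RPKM in sh-Gm6871 cells, against 106 and 84.4 RPKM in sh-empty cells. Klf5, which binds similar GC-rich sites through its zinc fingers, was at 91.3 and 110 RPKM in sh-Gm6871 cells, against 105 and 91.2 RPKM in sh-empty cells. Sh-Gm6871 library 2 and sh-empty library 1 were the higher pair for both genes. The same pair was the higher one for Sox2 and Dppa5a too, so it was not particular to Klf4 and Klf5. The share of all tested genes with that pattern was not counted. The ratio of Klf4 to Klf5 was 0.876 and 0.960 in sh-Gm6871 cells and 1.01 and 0.926 in sh-empty cells, a narrower range than either gene showed alone. The log2 differences were -0.04 (SE 0.21, interval -0.57 to 0.48) for Klf4, which was 0.03 after quantile normalization, and 0.03 (SE 0.17, interval -0.40 to 0.46) for Klf5.

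Tfcp2l1, a Grainyhead-like factor induced by LIF through STAT3, varied most. It was at 323 and 711 RPKM in sh-Gm6871 cells, against 328 and 506 RPKM in sh-empty cells. Both libraries numbered 2 were above both numbered 1, and the groups overlapped. Its highest value was 2.20 times the lowest, whereas 7 of the 9 members had a highest value under 1.5 times the lowest. The log2 difference was 0.23 with a wide error (SE 0.42, interval -0.81 to 1.28), it was -0.33 without sh-Gm6871 library 2 and -0.08 without sh-empty library 1, and 0.80 and 0.55 without sh-Gm6871 library 1 and sh-empty library 2. Of all tested genes, those with profiles most like that of Tfcp2l1 over the 4 libraries were the chloride channel gene Clcn2 (root mean square distance of centred log2 values 0.0382) and the calcium channel gene Cacna1a (0.065). Clcn2 was at 12.8 and 27.1 RPKM in sh-Gm6871 cells, against 12.1 and 19.6 RPKM in sh-empty cells.

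The remaining marks of ES cells gave the only member whose groups did not overlap. Nr0b1, an orphan nuclear receptor that binds POU5F1 and other factors of the network, was at 82.1 and 67.1 RPKM in sh-Gm6871 cells, against 82.2 and 119 RPKM in sh-empty cells. The 2 nearest values, both from libraries numbered 1, differed by less than their counting error. Its log2 difference was -0.41 (SE 0.23, interval -0.98 to 0.16), with an unadjusted p of 0.129 and an adjusted p of 0.997 by limma, and -0.15 without sh-empty library 2. Groups failed to overlap in this direction for 14.2% of all tested genes, and in either direction for 27.8%, so 1 member of 9 is no more than the background. Zfp42, a zinc finger protein related to YY1, was at 66.5 and 70.7 RPKM in sh-Gm6871 cells, against 64.3 and 78.7 RPKM in sh-empty cells, a log2 difference of -0.05 (SE 0.17, interval -0.47 to 0.37) that was 0.01 after quantile normalization. Dppa5a was at 4222 and 4719 RPKM in sh-Gm6871 cells, against 4606 and 3194 RPKM in sh-empty cells. Sh-empty library 2 was the low one, and the log2 difference of 0.22 (SE 0.26, interval -0.44 to 0.88) was -0.05 without it.

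**Figure D2:**
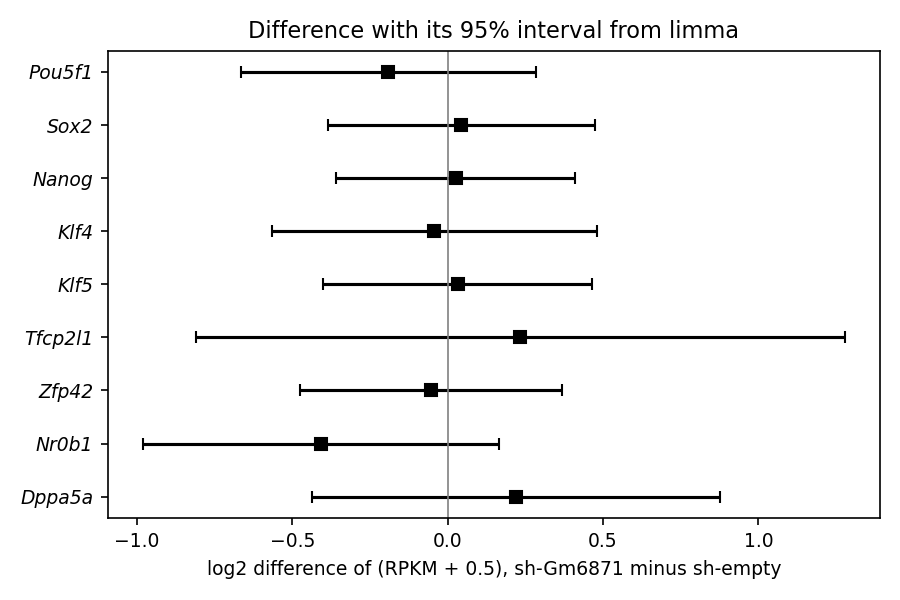
Log2 difference of RPKM + 0.5, sh-Gm6871 minus sh-empty, of the 9 tested members (squares) with its 95% interval from limma (bars, n = 2 each). Every interval includes 0, and they run from -0.98 at the low end of Nr0b1 to 1.28 at the high end of Tfcp2l1.

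The limma 95% intervals show what size of change the spread between these libraries leaves possible. If libraries 1 and 2 of a group are not separate cultures, the intervals do not cover the spread between cultures and are too narrow. For Nanog the interval ran from 0.780-fold to 1.33-fold, for Sox2 from 0.765-fold to 1.39-fold, and for Pou5f1 from 0.630-fold to 1.22-fold. For Tfcp2l1 it ran from 0.570-fold to 2.42-fold. Counting error was small beside this: the 9 members had from 4345 reads (Zfp42 in sh-empty library 1) to 436293 reads (Tfcp2l1 in sh-Gm6871 library 2), and the exact 95% Poisson interval reached on average at most 2.98% to each side of the value. Intervals from reads cover counting error only.

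The spread of the members between libraries did not follow the library number, except for Tfcp2l1 and Zfp42. Libraries 1 minus 2 had opposite signs in the 2 groups for 7 of the 9 members, where 47.3% of all tested genes did so. Klf4, for example, differed by -0.40 in sh-Gm6871 and by 0.33 in sh-empty, and Dppa5a by -0.16 and 0.53, on the log2 scale. Tfcp2l1 differed by -1.14 in sh-Gm6871 and -0.62 in sh-empty. The range over the 4 libraries had a median of 0.40 for the members and 0.50 for all tested genes.

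**Figure D3:**
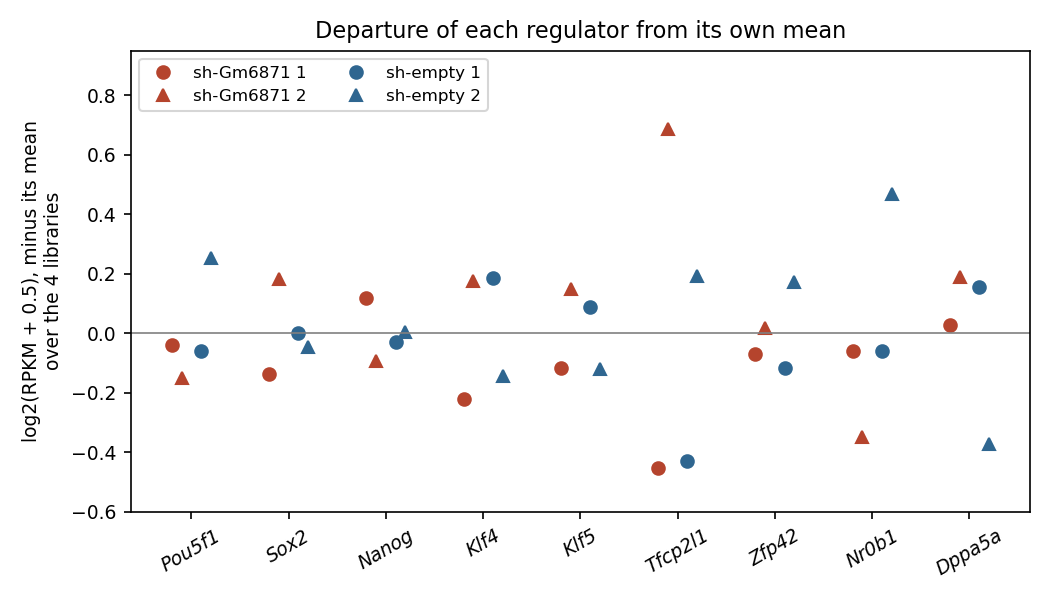
Log2(RPKM + 0.5) of each of the 9 tested members minus its own mean over the 4 libraries, in sh-Gm6871 (red) and sh-empty (blue) libraries 1 (circles) and 2 (triangles). The triangles of Tfcp2l1 lie above its circles in both groups, while the red and blue points of most other members interleave.

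Some markers of other cells and states were higher in library 1 than in library 2 of both groups, among them 6 of the 9 fibroblast markers and 11 of the 14 primed state genes. Not every list did so. Counts higher in library 1 of both groups, and in library 2 of both, were 5 and 4 of 12 for primitive endoderm genes. They were 1 and 4 of 6 for neuroectoderm, 3 and 1 of 7 for trophectoderm, and 2 and 5 of 17 for naive markers. Over all tested genes the median log2 difference of library 1 minus 2 was 0.0226 in sh-Gm6871 and 0.0326 in sh-empty. The share of all genes higher in library 1 of both groups was not counted. The fibroblast collagen Col1a1 was at 9.45 and 0.453 RPKM in sh-Gm6871 libraries 1 and 2, against 9.03 and 0.374 RPKM in sh-empty libraries 1 and 2. Col1a2, its partner chain, was at 3.67 and 0.0236 RPKM in sh-Gm6871 libraries 1 and 2, against 5.98 and 0.0432 RPKM in sh-empty libraries 1 and 2. The summed level of the 9 fibroblast markers was 109 and 25.9 RPKM in sh-Gm6871 cells, against 108 and 117 RPKM in sh-empty cells. Most of it came from the intermediate filament gene Vim. Dcn and Postn were at 0 in both libraries numbered 2, but near 0 in those numbered 1 too. There Dcn was at 0.0309 RPKM in sh-Gm6871 and 0.0143 RPKM in sh-empty cells, and Postn at 0.0482 and 0.0250 RPKM. Twist1 ran the other way, at 0.935 and 1.36 RPKM in sh-Gm6871 cells, against 0.920 and 1.72 RPKM in sh-empty cells, and Vim and Thy1 were higher in library 1 of sh-Gm6871 and in library 2 of sh-empty. The mesoderm factor T (Brachyury) was at 3.33 and 0.0814 RPKM in sh-Gm6871 libraries 1 and 2, against 6.96 and 0.217 RPKM in sh-empty libraries 1 and 2. T does not stand for its list: of 6 mesoderm genes 2 were higher in library 1 of both groups. Of the rest, 1 was higher in library 2 of both groups and 3 did neither. The 14 primed state genes summed to 412 and 117 RPKM in sh-Gm6871 cells, against 474 and 70.2 RPKM in sh-empty cells. The epithelial genes Krt8, Krt18 and Cldn6 made up 383 and 86.4 RPKM of this in sh-Gm6871 cells, against 423 and 39.7 RPKM in sh-empty cells. The other 11 primed state genes summed to 28.3 and 30.1 RPKM in sh-Gm6871 cells, against 50.9 and 30.5 RPKM in sh-empty cells, so that their sum was not higher in sh-Gm6871 library 1. Tfcp2l1 was the member that was lower in libraries numbered 1 by the most. The part of these markers in the Tfcp2l1 values was not tested. The defining ES cell genes Pou5f1, Sox2, Nanog and Zfp42 were high in all 4 libraries, so the labelled cell type was borne out in each.

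Esrrb was near 0 in this table. The orphan nuclear receptor is a target of GSK3 inhibition and a central naive factor in mouse ES cells, yet its higher entry, NM_001159500, was at 0.0135 and 0.0351 RPKM in sh-Gm6871 cells, against 0.0499 and 0.0295 RPKM in sh-empty cells. These values rest on 3 and 10 reads in sh-Gm6871 cells, against 8 and 8 reads in sh-empty cells. The other entry, NM_011934, had 2 and 1 reads in sh-Gm6871 cells, against 3 and 0 reads in sh-empty cells, and a count of 0 there allows up to 0.0113 RPKM (3 reads, a one-sided limit). Esrrb did not pass the filter on low values and was not tested. A difference between groups was not detectable from so few reads.

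The number of entries per gene moved with this value. Esrrb was the only member with more than 1 entry in the table. Over the whole table, 32.1% of the 16847 genes with a single NM entry had at least 10 RPKM, against 7.07% of the 2249 genes with 2 NM entries and 4.59% of the 1045 genes with 3 or more. Summing the entries of a gene left the share at 7.87% for genes with 2. Of the 35 listed network genes with a single entry 33 had at least 10 RPKM, the exceptions being the NODAL antagonists Lefty1 and Lefty2. Stat3, the effector of LIF, had 3 entries and at most 0.665 RPKM in the highest of them, and the 4 entries of Myc were listed at 0 in every library. The part of the entry number in the Esrrb values was not tested, and its level here cannot be read as that of the gene.

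**Figure D4:**
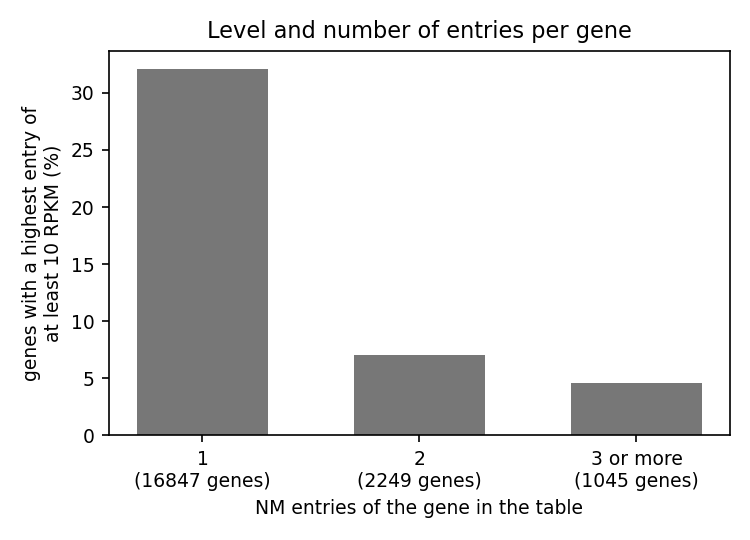
Share of genes whose highest entry had a mean of at least 10 RPKM over the 4 libraries (bars, percent), by the number of NM entries of the gene. The bar stands at 32.1% for genes with 1 entry and at 7.07% and 4.59% for those with 2 and with 3 or more. Esrrb is one of the genes with 2.

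The rest of the network also gave no call. Of the network factors, 13 of 15 were tested and 0 were called in either direction (median log2 difference -0.09, against -0.0026 over all genes). Those with the smallest p were Klf2, a naive factor related to Klf4, at 53.2 and 90.1 RPKM in sh-Gm6871 cells, against 42.8 and 40.2 RPKM in sh-empty cells. Gbx2, a homeobox target of STAT3, was at 8.88 and 6.55 RPKM in sh-Gm6871 cells, against 12.1 and 48.0 RPKM in sh-empty cells. Mycn, a growth regulator, was at 53.0 and 36.7 RPKM in sh-Gm6871 cells, against 56.7 and 65.1 RPKM in sh-empty cells. The groups did not overlap for 5 of the 13, these 3 among them, where 27.8% of all tested genes did so, and the limma adjusted p of each was 0.997.

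Of the LIF-STAT3 pathway, 7 of 9 genes were tested and 0 were called, with a median of 0.0087. The groups did not overlap for 1 of the 7. The smallest p-values were those of the kinase Pim3 (log2 difference 0.44), the LIF receptor Lifr (0.36) and the kinase Pim1 (0.35). Of the FGF-ERK pathway, 10 of 12 genes were tested and 0 were called, 8 of them below 0, with a median of -0.19. The smallest p-values were those of the ERK phosphatase Dusp6 (-0.86) and the ETS factors Etv4 (-0.48) and Etv5 (-0.24). Dusp6, which is induced by ERK activity, was at 34.4 and 21.6 RPKM in sh-Gm6871 cells, against 39.6 and 62.6 RPKM in sh-empty cells. It is 1 of 3 genes of the 10 without overlap, near the 27.8% of all tested genes without overlap in either direction. Of the naive markers and targets, 17 of 18 were tested and 0 were called, with a median of 0.12. The smallest p-values were those of Utf1, a chromatin-bound POU5F1-SOX2 target (-0.40), the AKT coactivator Tcl1 (0.93) and the adhesion molecule Pecam1 (0.44). The groups did not overlap for 7 of the 17, Utf1, Tcl1 and Pecam1 among them, against 27.8% of all tested genes. Lifr and Pecam1 have 2 entries each in the table, so the limit given for Esrrb holds for their levels and differences too. Each of these genes had a limma adjusted p of 0.997.

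Genes of neighbouring states were counted the same way. All 14 primed state genes were tested, 0 were called and 10 lay below 0, with a median of -0.57. Their log2 range over the 4 libraries had a median of 1.86, against 0.50 for all tested genes. Library 1 minus 2 had a median of 0.61 in sh-Gm6871 and 1.28 in sh-empty for this list. The primed state genes with the smallest p were Dnmt3b, which methylates DNA de novo and has 5 entries, with the same limit (-0.91), the transcription factor Lef1 of the WNT pathway (-0.54) and the secreted WNT regulator Sfrp2 (-0.60). Of the primitive endoderm genes 7 of 12 were tested, 0 were called and all 7 lay below 0, with a median of -0.44, led by Cubn (-0.81), Sparc (-0.57) and Col4a1 (-0.64). The highest of the 7 was at -0.0068, and their log2 range over the 4 libraries had a median of 1.06. The groups did not overlap for 4 of the 14 primed state and 4 of the 7 primitive endoderm genes, against 27.8% of all tested genes. Of the members, 4 of 9 lay below 0, as did 5874 of all 11658 tested genes, and no difference between the lists was tested. Trophectoderm (5 of 7 tested), neuroectoderm (3 of 6), mesoderm (1 of 6) and fibroblast genes (5 of 9) gave 0 calls, and 0 of 6 genes of the 2-cell-like state passed the filter, with a summed level of at most 0.398 RPKM. The groups did not overlap for 2 of the 3 tested neuroectoderm genes and for 0 of the tested trophectoderm, mesoderm and fibroblast genes. The smallest p-values of these lists were those of Krt7 (1.05), Cdx2 (-0.56) and Gata3 (0.20), of Tubb3 (0.46), Sox1 (-0.30) and Nes (-0.79), of T (-0.63), and of Vim (-1.13), Twist1 (-0.12) and Col1a2 (-0.34), with a limma adjusted p of 0.997 each.

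**Figure D5:**
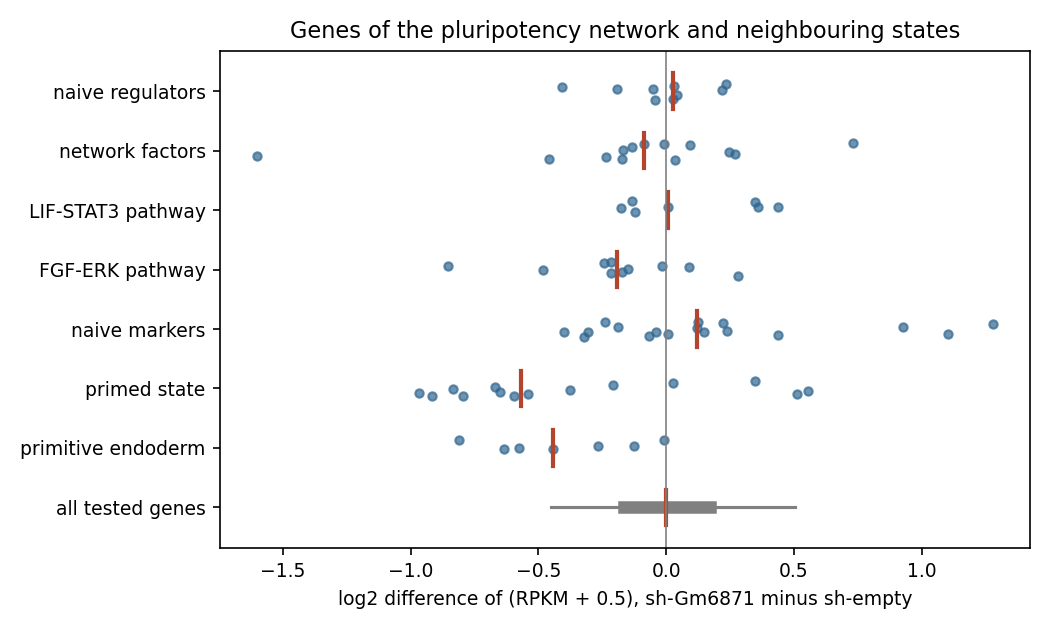
Log2 difference of RPKM + 0.5, sh-Gm6871 minus sh-empty, of each tested gene of 7 lists (points) with the list's median (red line), and below them all 11658 tested genes as median, quartiles (thick bar) and 5th to 95th percentile (thin bar). The 9 naive regulators have a median of 0.03, between the quartiles of all genes at -0.17 and 0.17.

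The human counterparts in sh-DNMTs and sh-empty H1 ES cells, a line in the primed state, were read beside them without a test, since each group had 1 library and the 2 species were normalised separately. POU5F1 was at 893 RPKM in sh-DNMTs cells and 921 RPKM in sh-empty cells, and SOX2 at 66.4 and 107 RPKM in sh-DNMTs and sh-empty cells. In the same order, ZFP42 was at 56.8 and 38.3 RPKM, NANOG at 32.6 and 17.3 RPKM and KLF4 at 2.17 and 3.05 RPKM. KLF5, TFCP2L1, ESRRB and NR0B1 were at most at 0.491 RPKM in either library, with ESRRB at 0.150 RPKM in sh-DNMTs cells and 0.124 RPKM in sh-empty cells from a single entry. DPPA5 was at 52.7 RPKM in sh-DNMTs cells and 0.555 RPKM in sh-empty cells.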

How the data were processed

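The authors deposited RPKM values for 36083 RefSeq entries in 4 mouse libraries and for RefSeq entries in 2 human libraries, per the file headers. The submitters' processing notes list Bowtie 0.12.5 as a tool and mm9 as the mouse build. The sources used here name no annotation release, no rule for reads with several positions and no use of strand. The 8 columns of group means and folds by the authors were not used. RefSeq accessions were matched to symbols of GRCm38.p6 for 27888 entries, and the entry with the highest mean was kept for each gene.

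The test was that of limma 3.58.1 (run in R 4.3.3) for values of log2(RPKM + 0.5) with a variance trend, no covariate and Benjamini-Hochberg adjustment at 0.05 over the 11658 genes with a mean of at least 0.5 RPKM. The code was tested on simulated data. Whole reads were worked out from library totals that turned 100% of the RPKM values of L1 loci into whole numbers within 0.01 reads, and from the smallest entry length, up to 120000 bp, that gave whole reads within 0.0001 reads in all 4 libraries. They served for exact Poisson intervals and for 1 alternative test by voom. Where that length is too short, the reads are understated.

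The members and gene lists were chosen with earlier results of these data known. Named genes are the members, the 3 tested genes of each list with the smallest p, and the 2 genes most like any member with a log2 range of at least 1 over the libraries. Lefty1, Lefty2, Stat3, Myc, Col1a1, Dcn, Postn, Thy1, Krt8, Krt18 and Cldn6 were named after their values were seen. The ChIP peaks are in mm9 and the promoter windows in GRCm38.p6, so the 2 were not joined. Alternatives were other pseudocounts, filters, scalings, summed entries, no variance trend, a replicate block, voom, and leaving out each library.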

Additional observations from a re-analysis of the deposited data

How the results depend on the processing

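The count of called genes was 0 among all tested genes, among the members and in each of the 11 other lists under all 14 alternatives, with the lowest limma adjusted p of any gene at 0.125 (no filter on low values). With each library left out the counts also ranged from 0 to 0, and the number of genes with an unadjusted p under 0.05 was 48 without sh-Gm6871 replicate 2 and 700 without sh-Gm6871 replicate 1. Outside these fits the members kept their direction, except Klf4 (0.031) and Zfp42 (0.013) after quantile normalization. With a library left out the log2 differences ranged from -0.045 to 0.48 for Dppa5a, from -0.24 to 0.16 for Klf4, from -0.10 to 0.16 for Klf5, from -0.079 to 0.13 for Nanog, from -0.12 to 0.20 for Sox2, from -0.33 to 0.80 for Tfcp2l1 and from -0.20 to 0.091 for Zfp42. Pou5f1 (-0.35 to -0.034) and Nr0b1 (-0.67 to -0.15) stayed below 0. The cause was not tested, and each such fit has 1 residual degree of freedom. The labels give the libraries a number and no shared source: over 11658 genes, 1 minus 2 in sh-Gm6871 and in sh-empty correlated with r = 0.292, and with the replicate block 0 genes were called and 372 had an unadjusted p under 0.05. Esrrb, with at most 10 reads in a library, did not pass the filter on low values.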
